A study of Mus musculus with 2 samples.

Results

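The keratin genes of mouse embryonic stem cells (mESCs) were compared between a culture with LIF and a culture with LIF plus CHIR99021 (CHIR). The genes were chosen by name: every identifier of the array that reads Krt, a number and at most 1 letter, which gave 47 of 30774 identifiers. The family was picked because Krt23 was already known to be higher with CHIR on these same arrays, so its values and the count of keratins past a fold limit are descriptions and carry no test. Both cultures were B6 mESCs, with inner cell mass of E3.5 embryos as the stated source, grown with serum and with LIF, a cytokine that signals through Stat3. Of the 2 cultures, 1 also had CHIR, a small molecule inhibitor of GSK3 that stabilises β-catenin, and the labels give 12 h of treatment. The growth note of both samples names CHIR, so the conditions were taken from the sample titles and the treatment note. The labels give the cells as B6, whereas a flow chart drawn by the study puts its comparison of CHIR with LIF against LIF under 46C ESCs, another mESC line. Total RNA of each culture was hybridized to 1 Illumina beadchip array, which reports RNA as the brightness of gene-specific probes. With 1 array per condition no spread between replicates could be had, so differences are given without a p-value.

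Keratins are the intermediate filament proteins of epithelial cells. A filament is built from pairs of an acidic type I and a basic type II keratin, and each epithelium uses its own pairs. Krt8 and Krt18 form the filaments of simple epithelia and are among the first keratins made in the embryo, in the trophectoderm. Krt5 with Krt14 mark the basal layer of stratified epidermis, Krt1 with Krt10 the layers above it, and a large group serves the hair shaft and its root sheath. The type I genes lie together on chromosome 11 of the mouse and the type II genes on chromosome 15, where the type I gene Krt18 also lies, beside Krt8.

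Stabilised β-catenin acts on genes through TCF/LEF factors, so the DNA just before the start of the keratin genes was read for their core letters. The promoters of the 3 keratins on which the results turn most, and for which a promoter entry (RefSeq, GRCm38.p6) was at hand, are shown for the 250 bases before the start, 5′ to 3′ on the strand of the gene. Krt17 and Krt19 had no promoter entry, although their genes are in RefSeq. Capitals mark CTTTG or its reverse CAAAG. The windows lie at chr11:99493121-99493370 for Krt23, chr11:100269952-100270201 for Krt42 and chr11:100206031-100206280 for Krt14, all on the minus strand.
Krt23: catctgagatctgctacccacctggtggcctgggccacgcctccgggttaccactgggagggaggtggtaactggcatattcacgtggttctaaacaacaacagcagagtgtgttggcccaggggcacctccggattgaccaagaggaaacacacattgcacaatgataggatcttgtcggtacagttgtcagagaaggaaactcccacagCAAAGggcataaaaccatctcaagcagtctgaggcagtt
Krt42: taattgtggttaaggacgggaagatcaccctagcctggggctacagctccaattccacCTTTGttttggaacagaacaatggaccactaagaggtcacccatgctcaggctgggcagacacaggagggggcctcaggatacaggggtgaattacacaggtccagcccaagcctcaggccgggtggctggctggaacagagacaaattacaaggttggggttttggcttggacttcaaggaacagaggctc
Krt14: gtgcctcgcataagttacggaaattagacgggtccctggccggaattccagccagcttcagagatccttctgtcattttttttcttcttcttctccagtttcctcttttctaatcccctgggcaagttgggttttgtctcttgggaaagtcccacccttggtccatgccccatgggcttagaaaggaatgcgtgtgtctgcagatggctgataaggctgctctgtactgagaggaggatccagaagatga
The Krt23 window held 1 core, 39 bases before the start, and the Krt42 window 1 core, 192 bases before it, while the Krt14 window held none. The core was in 17 of 34 keratin windows (50%), which came from 33 keratin genes, and in 48.6% of all 32851 windows of this length. The longer form CTTTGA or TCAAAG, which contains the core, was in 7 of 34 keratin windows (20.6%) and 13.8% of all, and in 0 of the 7 windows of detected keratins. The GC box GGGCGG or CCGCCC, the letters that Sp and Klf factors read, was in 2 of 34 keratin windows (5.88%), those of Krt7 and Krt75, and in 32.7% of all. Both strands were searched, and a match describes letters in the window only.

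Few keratins were expressed. The array gives each signal a detection p-value, the chance that negative control beads are as bright, and a signal with a detection p under 0.01 was called detected. In LIF, 8 of 47 keratins (17.0%) were detected against 29.3% of all identifiers, and in LIF plus CHIR 7 (14.9%) against 29.8%. In all, 9 of 47 keratins (19.1%) were detected on at least 1 array, compared with 31.2% of all identifiers. Of these, 6 were detected on both arrays, Krt14 and Krt19 in LIF alone and Krt23 in LIF plus CHIR alone. The type I keratins gave 7 of the 9 (Krt10, Krt14, Krt17, Krt18, Krt19, Krt23 and Krt42, of 28 measured) and the type II keratins 2 (Krt7 and Krt8, of 19). By usual site, 4 of 5 keratins of simple epithelia were detected, 3 of 16 of stratified epithelia, 0 of 21 of hair and 2 of 5 others, which were Krt23 and Krt42. With a looser limit of 0.05, 13 keratins (27.7%) were detected, compared with 38.0% of all identifiers.

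**Figure D1:**
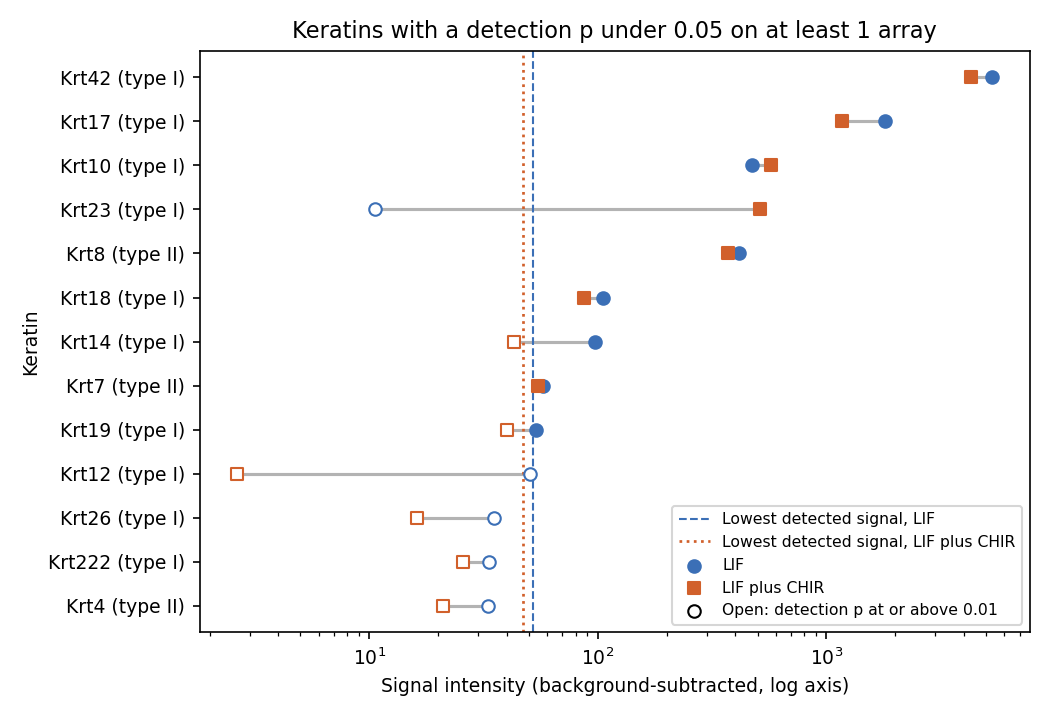
Signal intensity (log axis) of the 13 keratins with a detection p under 0.05 on at least 1 array, with 1 point for LIF (circle) and 1 for LIF plus CHIR (square) joined by a line. Open points had a detection p of 0.01 or more. The vertical lines mark the lowest signal detected among identifiers with 1 probe on each array (51.9 and 47.1). Krt23 was near background in LIF and at 512.1 in LIF plus CHIR, and Krt12, Krt26, Krt222 and Krt4 were under the detection limit on both arrays.

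Krt23, a type I keratin of epithelial cells (Entrez gene 94179, band 11qD), had the largest ratio between the arrays among the detected keratins. Its signal was 10.6 in LIF, with a detection p of 0.193, and 512.1 in LIF plus CHIR, with a detection p of 0, which means that no negative control was as bright. The LIF value was not distinguishable from negative controls, and its fold was computed as a bound against 51.9, which was the dimmest signal still detected among 1-probe identifiers of that array. With CHIR, Krt23 was higher by a factor of at least 9.86 (log2 3.30). Its plain ratio of signals was 48.1, which rests on a LIF signal within background. In LIF plus CHIR the signal of Krt23 lay at the 84.0 percentile of all identifiers, and its rank in LIF, within background, carries no information. It was the only keratin at least 1.5-fold higher with CHIR, 1 of the 9 detected, and 3.0% of all 9615 detected identifiers were. In RNA of a whole culture, a difference in the number of cells that make a keratin cannot be told apart from a difference in RNA per cell.

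At the other end, Krt14 and Krt17 were at least 1.5-fold lower with CHIR, 2 of the 9 detected, and 3.16% of all detected identifiers were. Krt14, the type I keratin of basal epidermal cells, had a signal of 96.7 in LIF, with a detection p of 0, and 43.2 in LIF plus CHIR, with a detection p of 0.0182. As the second signal fell short of detection, the fold was a bound, at least 2.05-fold lower (log2 −1.04). Krt17, a type I keratin known for its induction in injured epidermis, was well detected on both arrays, at 1798 in LIF and 1173 in LIF plus CHIR. It was 1.53-fold lower (log2 −0.62), just past the limit. With no replicate, neither difference can be set against the variation between cultures.

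Krt42, a type I keratin of rodents that the array also lists as ecat6, gave the brightest keratin signal, 5302 in LIF and 4270 in LIF plus CHIR. Its log2 ratio was −0.31, or 1.24-fold lower. Krt10, the type I keratin of the upper epidermal layers, went from 470.1 without CHIR to 572.7 with it, 1.22-fold higher (log2 0.28). It was the only keratin besides Krt23 with the higher signal in LIF plus CHIR among those detected. Probes differ in how brightly they bind, so these signals do not rank the keratins by RNA abundance.

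The detected simple epithelial keratins lay within the 1.5-fold limit. Krt8, the type II partner of this class (band 15qF3), had signals of 413.8 without CHIR and 370.9 with it, 1.12-fold lower (log2 −0.16). Krt18, its type I partner, had 105.2 and 87.3, 1.20-fold lower (log2 −0.27). Both partners of the pair thus had the lower signal with CHIR. Krt7, a type II keratin of ducts and trophoblast, was just above the detection limit at 57.3 (detection p 0.00534) and 54.5 (detection p 0.00641), with a log2 ratio of −0.07. Krt19, a type I keratin of simple epithelia, was at 53.8 (detection p 0.00641) in LIF and 39.9 (detection p 0.0246) in LIF plus CHIR, at least 1.14-fold lower (log2 −0.19). Krt20, a keratin of the gut lining, was the simple epithelial keratin not detected, at −1.95 in LIF and 2.17 in LIF plus CHIR.

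Across the 9 detected keratins, 7 had the lower signal in LIF plus CHIR and 2 the higher. Krt14 and Krt19 were detected in LIF alone and Krt23 in LIF plus CHIR alone, so their directions are tied to the array that detected them. The median log2 ratio of the 9 was −0.19. Over all detected identifiers it was −0.00386, so their ratios lay about evenly on either side of 0. For the 6 detected on both arrays, 5 were lower, with a median of −0.21 and a range from −0.62 to 0.28. Over all identifiers detected on both arrays the median was −0.0034. Whether so few keratins differ from other identifiers was not tested.

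How far a ratio strays depends on brightness, so each keratin was read against identifiers of like signal. Among detected identifiers whose brighter signal was under 100, which include Krt7, Krt14 and Krt19, 10.3% were past 1.5-fold in either direction, and from 100 to 300, the class of Krt18, 9.44% were. From 300 to 1000, with Krt8, Krt10 and Krt23, 5.39% were, and the 5th to 95th percentiles of log2 ratio ran from −0.42 to 0.44. Krt8 and Krt10 lay inside that range and Krt23 outside it. From 1000 to 3000 the share was 2.85% and the range −0.34 to 0.33, below which Krt17 lay with its −0.62. At 3000 and above the share was 1.48% and the range −0.26 to 0.26, so that Krt42 at −0.31 also lay below the range of its class, although inside the 1.5-fold limit. In the dimmest class the range was −0.62 to 0.56, with Krt14 below it and Krt7 and Krt19 inside, and Krt18 lay inside the range of its class, −0.58 to 0.56.

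**Figure D2:**
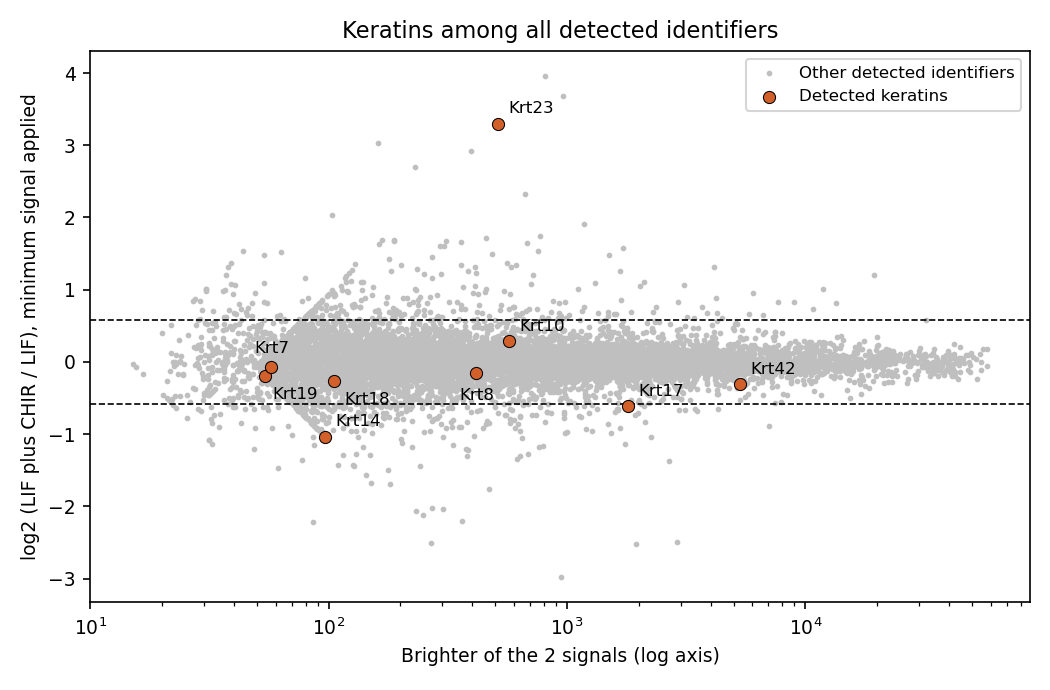
Log2 ratio of LIF plus CHIR over LIF against the brighter of the 2 signals (log axis) for the 9 detected keratins (large points) and all other detected identifiers (grey), with dashed lines at 1.5-fold. Signals under the lowest detected signal were raised to it, Krt23 lies at 3.30, Krt14 and Krt17 lie below the lower line, and the other 6 lie between the lines.

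The 38 keratins detected on neither array gave signals around 0. They ran from −16.4 to 50.3 with a median of −0.511 in LIF, and from −19.0 to 28.3 with a median of 0.675 in LIF plus CHIR. Negative signals, which arise from background subtraction, were seen for 19 of them in LIF and 18 in LIF plus CHIR. These values say that RNA of the 38 was not detectable with these probes and do not show that it was absent.

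Of these, 4 passed the looser limit of 0.05, all 4 in LIF alone. Krt12, the type I keratin of the cornea, missed detection narrowly in LIF at 50.3 (detection p 0.0118) and was at 2.65 (detection p 0.317) in LIF plus CHIR. A further identifier of the same gene, listed under the older name Krt1-12, read 49.3 (detection p 0.0128) and −1.67 (detection p 0.413), so the pair gave like values on each array. Krt26, a keratin of the hair root sheath, was at 35.2 and 16.2. Krt222 was at 33.4 and 25.6, and Krt4, the type II keratin of the lining of mouth and oesophagus, at 33.2 and 20.9. Since these 4 passed in LIF alone, their lower signal in LIF plus CHIR follows from how they were picked, and all their signals were under the limit of 0.01. Over all identifiers, 10972 passed 0.05 in LIF and 11001 with CHIR.

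The usual partners of the detected epidermal keratins were not detected. Krt5, the type II partner of Krt14, was at −4.26 in LIF and −4.82 in LIF plus CHIR. Krt1, the type II partner of Krt10, was measured only under the older name Krt2-1 and gave −0.721 and −12.6. The array thus showed Krt10 and Krt14 without a detectable signal of the type II keratin each is known to pair with, and Krt8 and Krt18 with one another.

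Some identifiers of keratin genes fall outside the naming rule, since the array lists them under older names. Of these 14, 8 belong to genes already among the 47 and 6 to keratins found under older names only (Krt1, Krt72, Krt76, Krt81, Krt88 and Krt90), and 0 of 14 were detected. Together the array held an identifier for 53 of 53 keratin genes of the RefSeq table. Krt8 had a further identifier, Krt2-8, at −5.76 in LIF and −2.82 in LIF plus CHIR, which goes against the 413.8 and 370.9 of the identifier named Krt8. Keratin genes of a type are alike in sequence, and the probe sequences were not used here, so whether a probe also binds a similar keratin was not tested.

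Along chromosome 11, no measured gene beside Krt23 went from undetected in LIF to detected in LIF plus CHIR. In RefSeq order the 5 genes on one side are Krt27, Krt28, Krt10, Krt12 and Krt20, and on the other Krt39, Krt40 and the keratin-associated genes Krtap3-3, Krtap3-2 and Krtap3-1. Of these 10, 9 were measured and 1, Krt10, was detected. The undetected neighbours ran from −16.3 to 50.3 in LIF and from −15.9 to 18.1 in LIF plus CHIR. Krt14, Krt16, Krt17 and Krt42 follow one another at the far end of the keratin order. Krt14, Krt17 and Krt42 were detected, and Krt16 was not, with signals of 28.0 and 16.9 within background. This run of genes was named after its values were seen, and whether its members change together was not tested. On the chromosome as a whole 6 of 27 keratins were detected, and on chromosome 15 there were 3 of 20, namely Krt7, Krt8 and Krt18.

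**Figure D3:**
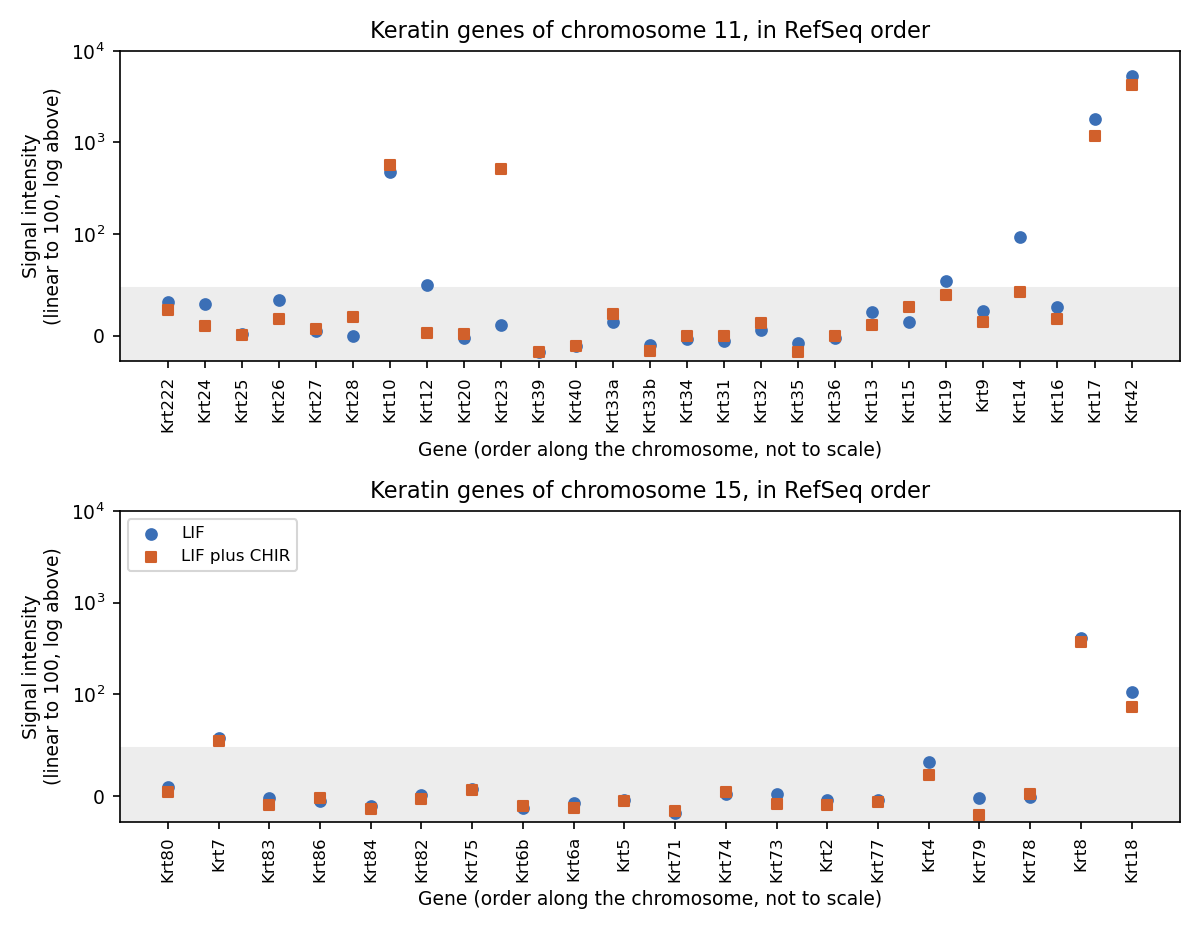
Signal intensity of the 47 keratins in LIF (circles) and LIF plus CHIR (squares), in the order of the genes on chromosome 11 (27 genes, upper panel) and chromosome 15 (20 genes, lower panel), on an axis that is linear to 100 and logarithmic above. The grey band reaches up to 47.1, the lowest signal detected in LIF plus CHIR, and most keratins lie inside it.

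Genes that work with keratin filaments were read from 6 lists that were not picked by how they moved, although earlier results of these arrays were known. Together 94 of the listed genes were measured and 39 detected, of which 3 were at least 1.5-fold higher with CHIR (Nes, Cdx2 and Tradd) and 2 lower (Grhl2 and Rbm35a), with a median log2 ratio of −0.05. Over all identifiers, 31.2% were detected, and of these 3.0% were higher and 3.16% lower. Nes, Cdx2 and Tradd were each undetected in LIF, so that 0 partner genes were higher when detection on both arrays was required. Of desmosome genes, whose products anchor keratin filaments at cell junctions, 4 of 16 were detected and 0 passed the limit in either direction (median −0.06). The plakophilins were the brightest of these, with Pkp4 at 2278 in LIF and 2196 in LIF plus CHIR, Pkp2 at 1664 and 1304, and Pkp3 at 211.5 and 202.2. The other detected desmosome gene, Dsg2, had the higher signal with CHIR, at 116.4 and 155.6 (log2 0.42). Desmoplakin, the protein that binds keratins directly, was not detected, with Dsp at −0.875 and −1.61. Of plakin linkers and hemidesmosome genes, which tie keratins to the cell base, 6 of 9 were detected and 0 passed the limit (median −0.02, but 0.02 with detection on both arrays and 0.0023 with detection by signal), with Cd151 at 2195 and 2105, Itgb4 at 580.0 and 588.8, and Plec1 at 256.4 and 299.4.

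Of intermediate filament genes that are not keratins, 9 of 17 were detected, with 1 higher, 0 lower and a median of −0.05. The nuclear lamins were the brightest of those detected, with Lmnb1 at 2894 and 2722, Lmnb2 at 2534 and 2814, and Lmna at 996.2 and 914.3. Nes, the nestin gene of neural progenitors, read 27.7 in LIF, which was not detected (detection p 0.0139), and 44.8 in LIF plus CHIR. Its ratio of 1.62 rests on that LIF signal, and by signal Nes was detected on neither array. Vim, the vimentin gene of mesenchymal cells, read 658.7 and 828.6 but had combined detection p-values of 0.28 and 0.273. An identifier measured by several probes can thus be bright and yet undetected by this rule, whereas the several-probe keratins had signals of 7.35 at most.

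Of the cornified envelope genes, which build the barrier of the epidermis, 3 of 21 were detected and 0 passed the limit. Their median of −0.29 turned to 0.09 at a detection limit of 0.05 and to 0.27 with detection by signal, where Krtdap and Sfn were past the limit and higher. The 3 detected were Tgm1, the transglutaminase of the envelope, at 1221 in LIF and 837 in LIF plus CHIR, Cdsn at 52.0 and 42.5, and Sprr2a at 30.2 and 32.4. Of epithelial regulators, 9 of 16 were detected, with 1 higher, 2 lower and a median of −0.16. Cdx2, a factor of trophectoderm and gut, read 23.6 in LIF, which was not detected, and 93.5 in LIF plus CHIR, at least 1.80-fold higher. Grhl2, a grainyhead factor of epithelia, read 737.8 and 442.8, 1.67-fold lower, and Rbm35a, the splicing regulator now named Esrp1, read 178.3 and 104.9, 1.70-fold lower. Tcfap2c, at 3175 and 3329, and Cdh1, the E-cadherin gene, at 467.4 and 419.5, lay within the limit. Of genes whose products bind or modify keratin filaments, 8 of 15 were detected, with 1 higher, 0 lower and a median of 0.09. Tradd, an adaptor of TNF receptor signaling that binds keratins, read 44.1 in LIF, which was not detected (detection p 0.0374), and 81.9 in LIF plus CHIR. Its ratio of 1.86 rests on that LIF signal and came to log2 0.66 where detection was read from the signal. Among genes detected by p-value, Mapk14 (3950 and 4267), Dnajb6 (2683 and 2437) and Aurkb (1121 and 1160) were the brightest, and Hspb1, a small heat shock protein, read 4172 and 4191 but was not detected by its combined p-value.

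**Figure D4:**
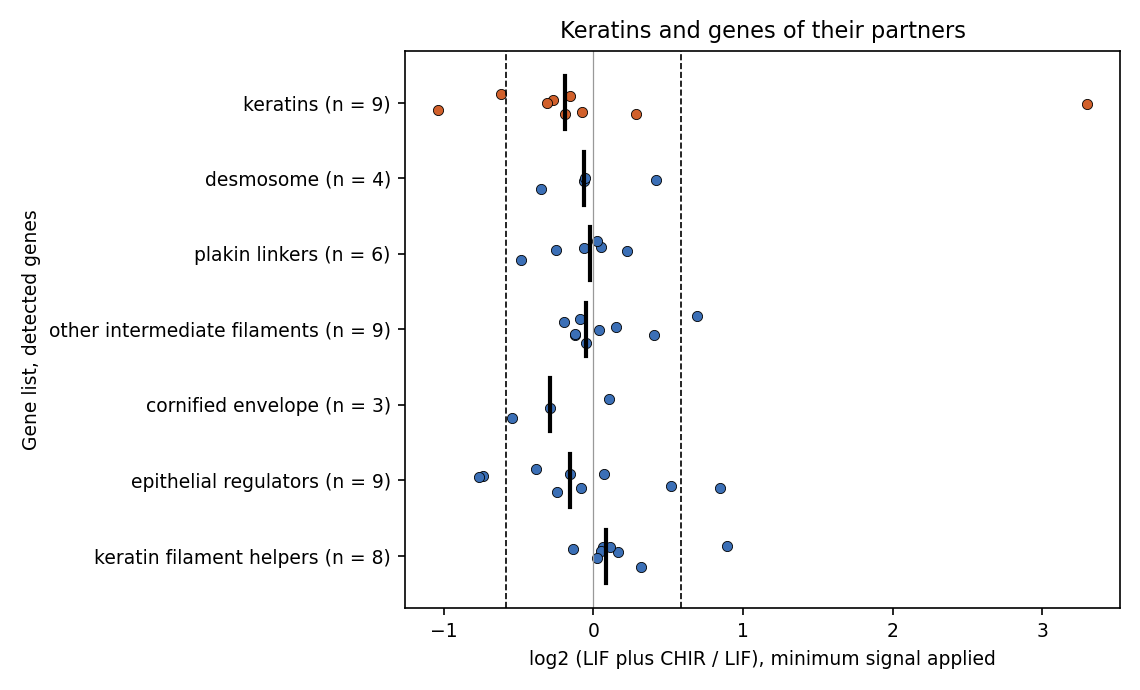
Log2 ratio of LIF plus CHIR over LIF for the 9 detected keratins and for the detected genes of 6 lists of keratin partners, 1 point per gene, with a vertical bar at the median of each list and dashed lines at 1.5-fold. The medians lie from −0.29 to 0.09, and Krt23 at 3.30 stands apart from the other keratins and from the partner genes.

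Markers of the cell types that the cultures could hold were read beside the keratins, with signals summed over every measured gene of a list, detected or not. Over all identifiers, 31.2% were detected, and of these 3.0% were at least 1.5-fold higher and 3.16% lower. Of mESC markers, 10 of 12 were detected, among them Pou5f1 at 12347 without CHIR and 11309 with it. Sox2, at 441.2 and 400.2, was undetected by its combined detection p-value (0.0503 and 0.276). Tdgf1, at 26.6 and 14.6, was also undetected (detection p 0.0737 and 0.158). The summed signal of the list was 107805 and 115934, of which Dppa5 alone gave 57706.3 and 55731.5. Klf2 (4332 and 7689) and Tcfcp2l1 (7658 and 13485), factors of naive pluripotency, were past 1.5-fold higher, and 0 mESC markers were past it lower. Of epidermal keratinocyte markers, 3 of 11 were detected, Tgm1, Krt10 and Krt14, which is near the share over all identifiers. The summed signal over all 11 was 2486 and 2559. That sum includes Sfn, at 662.4 and 1071 but undetected by its combined p-value, whereas Tgm1 and Krt14 had the lower signal with CHIR and Krt10 the higher. The defining Trp63, Ivl, Lor and Flg were not detected. Trophoblast cells make Krt7, Krt8, Krt18 and Krt19, and 2 of 10 trophoblast markers were detected, Tcfap2c and Cdx2. The summed signal of the list was 3298 and 3514, most of it from Tcfap2c, at 3175 and 3329. Eomes, Elf5, Gata3 and Hand1 were not, and Ascl2, at 90.7 and 52.3, was undetected by its combined p-value. Of primitive endoderm markers, 3 of 11 were detected, again near that share, namely Lama1 (1538 and 1879), Col4a1 (213.3 and 153.5) and Sox7 (45.9 and 59.0). The summed signal was 1882 and 2150, and Gata4, Gata6 and Sox17 were not detected. Of feeder or fibroblast markers, 1 of 12 was detected, Twist1 at 116.9 and 103.8, with a summed signal of 381.2 and 370.9 over all 12, most of it from Thy1, at 222.3 and 225.3 and undetected by its combined p-value. None of the listed collagens was detected. The part of such cells in the keratin signals was not tested.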

How the data were processed

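Signals were measured on 1 Illumina mouse beadchip array per condition. The authors deposited a signal intensity on a linear scale, background-subtracted, and a detection p-value from negative control beads for each identifier and array. Median signals were 10.5 in LIF and 10.4 with CHIR, and the number of arrays limits the precision. Software and normalization method are not given in the sources used here. A shorter table described as normalized held 11702 of the identifiers, and 0 of the shared values differed.

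Keratins and lists were chosen with earlier results of these data known. The 47 keratins were matched to RefSeq by Entrez number (1 symbol differed, Krt83 for Krt87), and 39 had 1 probe. This was judged by detection p-values on both arrays that were multiples of a step of 1 over 936 (tolerance 0.001 of a step). Log2 ratios were computed for identifiers detected (detection p under 0.01) on at least 1 array, after signals below the lowest detected signal of the array (51.9 and 47.1 for 1 probe, 15.1 and 14.8 for several) were raised to it. A ratio with a raised signal is a bound. The limit of 1.5-fold follows the study. Keratin sites (simple, stratified, hair) were assigned from general knowledge.

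Named genes were the keratins detected at 0.01 or 0.05, list and marker genes past the limit or among the 3 brightest detected, and 5 genes on each side of Krt23. Krt5, Krt20, Krt16, Krt1, Dsp, Dsg2, Vim, Hspb1, Sfn, Thy1, Krtdap, Sox2, Tdgf1, Ascl2, Itga6, Dmn and older identifiers were named after their values were seen. Alternatives were normexp correction (limma 3.58.1, R 4.3.3, offset 16), quantile normalization, scaling to the 75th percentile, other detection limits, other minimum signals, a 2-fold limit and the shorter table. The calculation, in Python 3.11.15 with pandas 2.3.3 and numpy 2.4.6, was tested on simulated data. Figures used matplotlib 3.10.9.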

Additional observations from a re-analysis of the deposited data

Results flagged for a closer look

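Krtap8-2, a keratin-associated protein gene of hair and outside the 47 keratins, read 41.9 in LIF (detection p 0.0224) and 48.3 in LIF plus CHIR (detection p 0.00962). It drew attention as a detected signal in genes that no comparison used. It was the only 1 of 26 keratin-associated genes detected, compared with 31.2% of all identifiers. Its detection p lay just under the limit of 0.01, and its signal just above the lowest detected signal of that array, 47.1.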

How the results depend on the processing

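Over 9 other settings and 1 more chosen after seeing the data (detection by signal instead of the combined p-value), no log2 ratio of a detected keratin changed sign, while the medians of the plakin linkers and of the cornified envelope genes did. A 2-fold limit, the shorter table with its same values, detection on both arrays and detection by signal left every keratin ratio they kept as it was. A change of sign could therefore come only from the remaining settings. Krt23, at log2 3.30, became 4.0 with normexp correction, 4.0 at a detection limit of 0.05, 5.08 with 1 minimum signal over all identifiers and 5.59 with no minimum, since its LIF signal lies within background. When detection on both arrays was required, Krt23 left the comparison, so that 0 keratins were higher and 1 lower (Krt17), and 0 partner genes were higher. With a 2-fold limit 1 keratin was lower (Krt14). At a detection limit of 0.05, 13 keratins were detected, 3 keratins were lower instead of 2, and 5 partner genes were higher instead of 3, while all identifiers gave 479 higher and 519 lower instead of 288 and 304. With a 2-fold limit all identifiers gave 78 and 54. The other detected keratins ranged in log2 from −1.16 to −0.93 (Krt14), from −0.62 to −0.61 (Krt17), from −0.43 to −0.18 (Krt19) and from −0.32 to −0.31 (Krt42). Scaling moved the median of all identifiers by −0.00534. The signals of Krt7 and Krt19, and the lower signals of Krt14 and Krt23, were near or within background, which limits their folds. No paired analysis was possible because there was a single array for each condition and no test.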

Other observations

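The keratin-associated proteins, which embed the keratin filaments of hair, were as dim as the hair keratins. The 26 measured ran from −18.2 to 41.9 with a median of −6.56 in LIF, and from −17.4 to 48.3 with a median of −8.0 in LIF plus CHIR.

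Where detection was read from the signal instead of the combined p-value, 9 keratins were detected as before, and 35.1% of all identifiers were. Of partner genes, 2 plakin linkers, 1 other intermediate filament gene, 3 epithelial regulators and 5 keratin filament helpers entered. Sprr2a, Nes, Itga6 and Dmn were no longer detected. Of cornified envelope genes 2 entered, Krtdap and Sfn. Krtdap, a secreted protein of differentiating keratinocytes, read 66.9 in LIF and 219.0 in LIF plus CHIR. Sfn, the 14-3-3σ gene of epithelia, read 662.4 and 1071. Both were past the limit of 1.5-fold, and their combined detection p-values were 0.168 and 0.0271 for Krtdap and 0.0354 and 0.0719 for Sfn.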
